A study of Mus musculus with 4 samples.

Results

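The RNA levels of 10 genes for the basement membrane were compared in tail keratinocytes (KCs) of WT and Nfat5-/- mice. The genes were found by name among the 25814 genes of the deposited tables, and each name matched 1 gene. They were the nidogens Nid1 and Nid2, the laminin chains Lama5, Lamb1, Lamb2 and Lamc1, perlecan (Hspg2), the collagen IV chains Col4a1 and Col4a2, and collagen VII (Col7a1). Nid1 was chosen by its difference between the genotypes in these same libraries, so its values, fold change and error are given as a description, with no p-value, and nothing is read from its place in the counts. The other 9 were listed by name as parts of the same structure.

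The KCs were untreated primary cultures from adult mice of the 129/sv strain, grown in serum-free medium with 0.06 mM calcium, and the WT mice were siblings of the Nfat5-/- mice. The methods of the study do not give the time in culture of these libraries. The paper reports large changes in KC gene expression with time in culture. There were 2 WT libraries and 2 libraries labelled Nfat5-/-, from mice labelled as knockouts of the gene for the transcription factor NFAT5. Values are given in the order of replicates 1 and 2. The libraries held between 16219445 and 23494436 gene reads, and both libraries of a genotype differed by more than sampling noise. Nfat5 reads did not separate the labels. Its level was 1.67 and 3.0 RPKM (reads in exons, scaled to their length and to library depth) in the WT pair, against 2.02 and 2.78 RPKM in the pair labelled Nfat5-/-, with a log2 fold change of 0.09 (SE 0.26, adjusted p = 0.913). The deleted part of the gene is not given in the sources used here, so this RNA level does not check the labels. The paper reports that NFAT5 protein was absent from KCs of Nfat5-/- mice in a western blot, which was not analysed here. The basal KC keratins Krt5 and Krt14 were at 4990 to 5775 and 5148 to 6985 RPKM, but Krt15, another basal keratin, was at 0.440 RPKM or less.

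The basement membrane is the thin sheet of matrix on which basal KCs sit. A network of laminins lies next to the cells, a network of collagen IV lies beneath it, and nidogens and perlecan link them. A laminin is a trimer of an alpha, a beta and a gamma chain. Laminin-332, with the alpha chain Lama3 and the beta chain Lamb3, is the main laminin of the epidermis. Nidogens bind the chain of Lamc1, which laminin-332 lacks. Lama5, Lamb1, Lamb2 and Lamc1 form the laminins that carry it, and Col7a1 forms the fibrils that anchor the sheet in the dermis.

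Sequences at the starts of Nid1, Lamb2 and the collagen IV pair are shown. Those of Nid1 and Lamb2 hold TGGAAA, the core of the element bound by NFAT5, and the annotated collagen IV genes overlap there. RefSeq promoter windows on GRCm38.p6, with 250 bases before and 50 bases after the start, were found for 8 of the 10 genes. Nid2 and Lamc1 had none in the table used. Nid1 (ENSMUSG00000005397) lies on chromosome 13, from 13437551 to 13512269 on the plus strand, with 20 exons. The 199 bases before the start in the deposited tables (chr13:13437352-13437550, plus strand) read as follows, 5′ to 3′, with the GC box motif GGGCGG in capitals.
Nid1 upstream: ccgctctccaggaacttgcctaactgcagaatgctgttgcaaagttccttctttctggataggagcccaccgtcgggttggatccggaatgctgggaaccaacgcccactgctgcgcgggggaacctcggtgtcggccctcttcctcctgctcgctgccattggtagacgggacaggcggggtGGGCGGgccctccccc

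The core of the element bound by NFAT5, TGGAAA, was searched on both strands of the 300-base windows. It was in the windows of Nid1 and Lamb2, both times as its reverse complement TTTCCA, and not in the other 6. Of all 32851 windows in the table, 21.4% held it. The 30-base stretches around the matches are shown with the motif in capitals, at chr13:13437563-13437592 and chr9:108479845-108479874, both on the plus strand.
Nid1 match: ttctcctccccaTTTCCAggggtggggacg
Lamb2 match: tccttcccttgcTTTCCAactttactcaaa
The Nid1 match began 27 bases before the RefSeq start, which is 51 bases downstream of the start in the deposited tables. GGGCGG or its reverse complement CCGCCC was in 7 of the 8 windows and in 35.7% of all windows. The windows of the 8 genes had a GC content of 44.0% to 74.0%, and the median of all windows was 52.7%. The rest of the NFAT5 element was not searched, so a match to the core does not show a full element. A match is a stretch of letters and does not show that a factor bound there.

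Col4a1 and Col4a2 lie head to head on chromosome 8. In the deposited tables, Col4a1 runs on the minus strand from 11198423 to 11312826 and Col4a2 on the plus strand from 11312805 to 11449287. Their annotated starts share 22 bases (chr8:11312805-11312826, plus strand), and their promoter windows overlap too.
Col4a1 and Col4a2 overlap: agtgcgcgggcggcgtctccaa
Whether reads were counted by strand is not given in the sources used here, so reads from these 22 bases cannot be assigned to one of the genes by strand. All exon reads of the 10 genes counted here were placed at a single site (100% for each gene).

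The linkers between the laminin and collagen IV networks are the nidogens and perlecan. Nid1 was at 8.76 and 10.5 RPKM in the WT pair, against 26.2 and 24.6 RPKM in the pair labelled Nfat5-/-. Both Nfat5-/- libraries were above both WT libraries. The means were 9.61 ± 1.20 RPKM (SD, n = 2) and 25.4 ± 1.12 RPKM (SD, n = 2), a ratio of 2.64, and the log2 fold change was 1.42 (SE 0.12). Nid1 carried 888 and 1418 gene reads in the WT pair, against 3854 and 2869 in the pair labelled Nfat5-/-. Reads across exon junctions were also more numerous, with 156 and 251 in WT against 754 and 527. Reads in introns made up 0.113% to 0.494% of the Nid1 reads, so nearly all of them came from exons.

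The second nidogen, Nid2, had 1 read in each WT library and 0 in each Nfat5-/- library. A count of 0 allows up to 3 reads, or 0.128 to 0.185 CPM (counts scaled to library size). Nid2 was therefore at or under the limit in every library, no fold change is given, and the ratio of Nid1 to Nid2 could not be formed. Nid2 (chromosome 14, 19751265 to 19811787) overlaps the gene Rtraf in the annotation. Nidogen RNA of these cultures was thus almost entirely Nid1.

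Hspg2 encodes perlecan, a large heparan sulfate proteoglycan that binds both nidogen and collagen IV. It was at 33.7 and 33.4 RPKM in the WT pair, against 38.3 and 44.4 RPKM in the pair labelled Nfat5-/-. The groups did not overlap, with means of 33.5 ± 0.178 and 41.4 ± 4.27 RPKM (SD, n = 2). The log2 fold change of 0.32 (SE 0.11) had an unadjusted 95% interval of 0.06 to 0.59 and did not pass the test over all genes (adjusted p = 0.264, edgeR). Without Nfat5-/- replicate 2 it was 0.20 (adjusted p = 0.817).

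**Figure D1:**
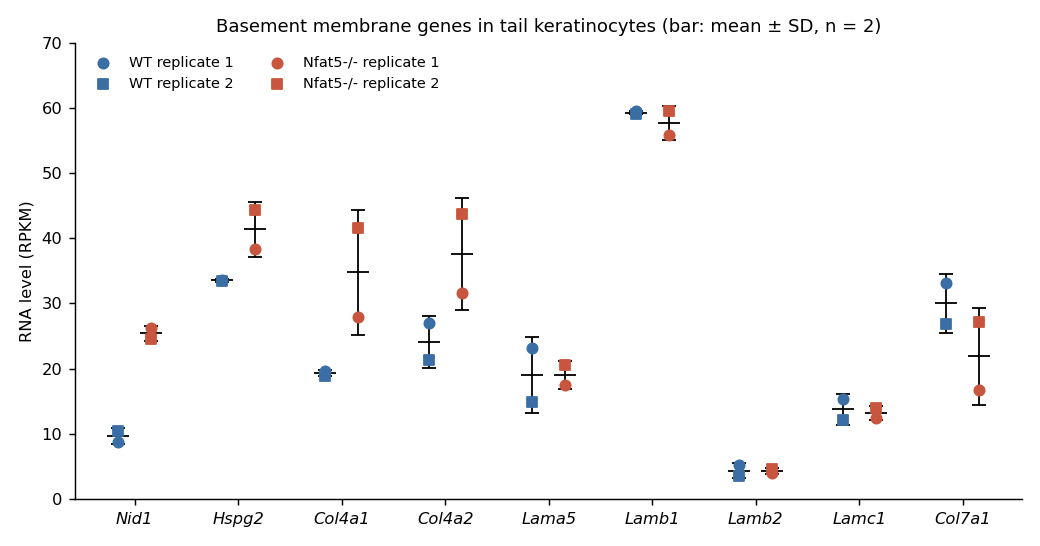
RNA level (RPKM) of the 9 basement membrane genes that passed the filter on low counts, by library; blue points are WT, red points are libraries labelled Nfat5-/-, and bars give the mean ± SD (n = 2). Nid1, Hspg2, Col4a1 and Col4a2 have both red points above both blue points, and the groups overlap in the other 5 genes.

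The 2 collagen IV chains that form its common trimer were at higher mean levels in the libraries labelled Nfat5-/-, but neither passed the test. Col4a1 was at 19.6 and 18.9 RPKM in the WT pair, against 28.0 and 41.6 RPKM in the pair labelled Nfat5-/-. The latter were both above WT and lay further from each other than either WT library lay from the lower of them. The log2 fold change of Col4a1 was 0.87 (SE 0.19, adjusted p = 0.0874, edgeR, n = 2 per group), with an unadjusted 95% interval of 0.43 to 1.32. Without Nfat5-/- replicate 1 it passed (1.15, adjusted p = 0.0489), and without Nfat5-/- replicate 2 it was 0.54 (adjusted p = 0.294). In such fits 1 group has a single library, which is assumed to vary like the other group, so that pass carries little weight. DESeq2 also put Col4a1 past the threshold (adjusted p = 0.000396).

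Col4a2 was at 26.9 and 21.3 RPKM in the WT pair, against 31.6 and 43.7 RPKM in the pair labelled Nfat5-/-. The groups did not overlap here either. Its log2 fold change was 0.66 (SE 0.19, adjusted p = 0.167, edgeR), with an unadjusted 95% interval of 0.22 to 1.10, and it passed with DESeq2 (adjusted p = 0.0180). Without Nfat5-/- replicate 2 its log2 fold change was 0.39. Nfat5-/- replicate 2 was the library with the highest level of both chains.

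Within a library both chains kept similar proportions. The ratio of Col4a1 to Col4a2 in RPKM was 0.729 and 0.890 in the WT pair, against 0.886 and 0.951 in the pair labelled Nfat5-/-. The groups overlapped in this ratio.

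The fitted differences of the 4 non-332 laminin chains were small, with log2 fold changes from -0.04 to 0.02. Lama5, the alpha chain of these laminins, was at 23.1 and 14.9 RPKM in the WT pair, against 17.5 and 20.6 RPKM in the pair labelled Nfat5-/-, so both Nfat5-/- values lay between the WT values. Its log2 fold change was 0.02 (SE 0.20, adjusted p = 0.984, edgeR), and its interval ran from -0.46 to 0.49. Lamb1, one of the beta chains, was the highest of the 10 genes in every library, at 59.5 and 59.1 RPKM in the WT pair, against 55.9 and 59.5 RPKM in the pair labelled Nfat5-/-. Its log2 fold change of -0.02 (SE 0.10, adjusted p = 0.945, edgeR) had an interval of -0.26 to 0.21, the narrowest of the 4 chains.

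Lamb2, the beta chain that can take the place of Lamb1, was far lower, at 5.15 and 3.50 RPKM in the WT pair, against 3.95 and 4.64 RPKM in the pair labelled Nfat5-/-. Its difference on the log2 scale was 0.01 (SE 0.20, adjusted p = 0.994, edgeR), with an interval of -0.46 to 0.48. Lamb1 exceeded Lamb2 by 11.5 and 16.9 times in the WT pair, against 14.2 and 12.8 times in the pair labelled Nfat5-/-, so the Nfat5-/- ratios lay between the WT ratios. Lamc1, the gamma chain that binds nidogen, was at 15.4 and 12.1 RPKM in the WT pair, against 12.5 and 13.9 RPKM in the pair labelled Nfat5-/-. The fit gave a log2 fold change of -0.04 (SE 0.14, adjusted p = 0.926, edgeR), with an interval of -0.37 to 0.29. For none of these 4 chains does the p-value show equal levels, and the intervals give the differences that remain possible. Each of the 4 changed sign when some single library was left out. Lama5 was at -0.27 on the log2 scale without WT replicate 2, Lamb2 at -0.25 without WT replicate 2, Lamc1 at 0.15 without WT replicate 1 and Lamb1 at 0.04 without Nfat5-/- replicate 1.

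Nid1 can be set against the chain it binds. The ratio of Nid1 to Lamc1, chosen after the values were seen, was 0.569 and 0.864 in the WT pair, against 2.10 and 1.77 in the pair labelled Nfat5-/-. Nid1 was below Lamc1 in both WT libraries and above it in both Nfat5-/- libraries. With 2 against 2 libraries, an exact permutation test (two-sided) cannot give a p below 0.333, so ratios were not tested.

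Col7a1 was at 33.2 and 26.8 RPKM in the WT pair, against 16.7 and 27.2 RPKM in the pair labelled Nfat5-/-. The higher Nfat5-/- library was within the WT range, and the groups overlapped. The log2 fold change was -0.44 (SE 0.23, adjusted p = 0.439, edgeR), with an interval of -0.98 to 0.10. Without Nfat5-/- replicate 1 it was -0.12, and without Nfat5-/- replicate 2 it was -0.85.

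In counts, 9 of the 10 genes passed the filter on low values, each with reads in all 4 libraries. Among all 12614 genes tested with edgeR, 1.27% passed an adjusted p of 0.05. Of the 9 members, 1 was past it, Nid1, for which the list's rule used this contrast, so that count is no test of Nid1. Of the other 8 members tested, 0 passed with edgeR, 3 were at an unadjusted p under 0.05 (Hspg2, Col4a1, Col4a2), beside 14.6% of all genes tested, and 2 passed with DESeq2 (Col4a1, Col4a2), beside 3.16% of the 13145 genes it tested. Both Nfat5-/- libraries were above both WT libraries in 3 of these 8 genes, against 21.6% of all genes tested, and in 0 of 8 were both below, against 25.0% of all genes. The median log2 fold change of the 8 was 0.01, and that of all genes tested was -0.01.

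**Figure D2:**
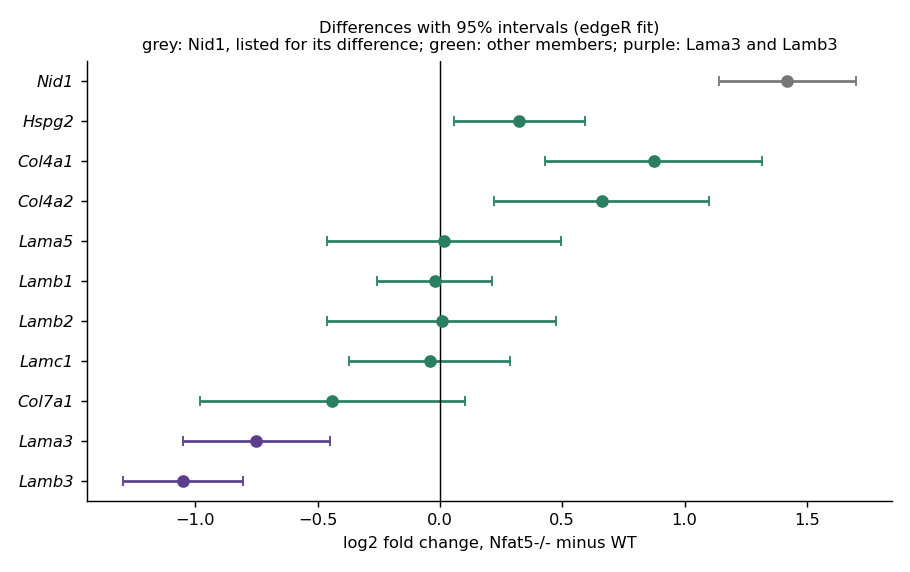
Log2 fold change (libraries labelled Nfat5-/- minus WT) from the edgeR fit with unadjusted 95% intervals, for Nid1 in grey, the other basement membrane genes tested in green and Lama3 and Lamb3 of laminin-332 in purple. The intervals of Lama5, Lamb1, Lamb2, Lamc1 and Col7a1 include 0, those of Hspg2, Col4a1 and Col4a2 lie above it, and those of Lama3 and Lamb3 lie below it.

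The order of the genes by level changed in the middle. In WT the order of mean RPKM was Lamb1, Hspg2, Col7a1, Col4a2, Col4a1, Lama5, Lamc1, Nid1, Lamb2 and Nid2. Of the neighbours in that order, Col7a1 and Col4a2, Col4a1 and Lama5, and Lama5 and Lamc1 overlapped between libraries. In the libraries labelled Nfat5-/- the order was Lamb1, Hspg2, Col4a2, Col4a1, Nid1, Col7a1, Lama5, Lamc1, Lamb2 and Nid2. There, Hspg2 and Col4a2, Col4a2 and Col4a1, Nid1 and Col7a1, and Col7a1 and Lama5 overlapped. Nid1 was in place 8 of the 10 in both WT libraries, and in places 5 and 6 in the libraries labelled Nfat5-/-.

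The spread within a genotype ran the same way in most of these genes. In 8 of the 9 genes tested, WT replicate 1 was above WT replicate 2 and Nfat5-/- replicate 2 was above Nfat5-/- replicate 1, a pattern found in 21.6% of all genes tested. Nid1 was the exception, with both orders reversed. What these libraries share was not tested, and values of the 8 genes from 1 library are not independent of each other.

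Lama3 and Lamb3 of laminin-332 were the comparators. Both were at lower levels in both libraries labelled Nfat5-/-, and the groups did not overlap. Lama3 was at 141.8 and 171.5 RPKM in the WT pair, against 87.1 and 96.5 RPKM in the pair labelled Nfat5-/-, and fell by 0.75 on the log2 scale (SE 0.13, adjusted p = 0.0452, edgeR). Lamb3 was at 397.1 and 428.7 RPKM in the WT pair, against 190.2 and 203.7 RPKM in the pair labelled Nfat5-/-, and fell by 1.05 (SE 0.10, adjusted p = 0.0123, edgeR). The folds kept their direction as each library was left out, from -0.61 to -0.87 for Lama3 and from -0.98 to -1.11 for Lamb3, although some calls were lost. Lama3 did not pass without WT replicate 2 (adjusted p = 0.0560), Nfat5-/- replicate 1 (0.155) or Nfat5-/- replicate 2 (0.158), and Lamb3 did not pass without Nfat5-/- replicate 1 (0.0558).

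The shares of alpha and beta chain RNA were also set out within each library, in RPKM. Lamb1 and Lamb2 together were 14.0% and 12.7% of the RNA of Lamb1, Lamb2 and Lamb3 in the WT pair, against 23.9% and 24.0% in the pair labelled Nfat5-/-. Lama5 was 14.0% and 8.01% of the RNA of Lama3 and Lama5 in the WT pair, against 16.7% and 17.6% in the pair labelled Nfat5-/-. For both shares, both Nfat5-/- libraries were above both WT libraries, while the levels of Lama5, Lamb1 and Lamb2 overlapped between the genotypes. These shares were chosen after the values were seen and were not tested.

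**Figure D3:**
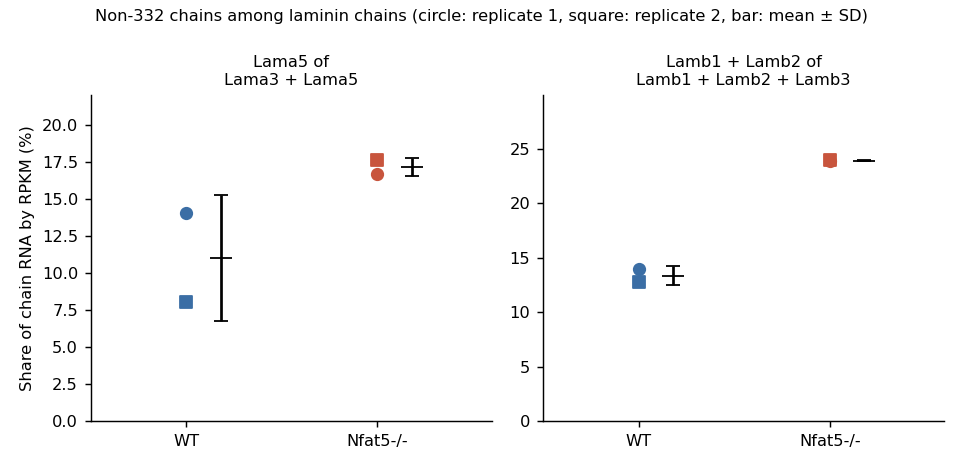
Share of the non-332 chains (percent, by RPKM) among the alpha (left) and beta (right) laminin chains in each library, with circles for replicate 1, squares for replicate 2 and bars for the mean ± SD (n = 2); the axes differ between panels and start at 0. The libraries labelled Nfat5-/- have the higher share in each panel, on average 17.1% of the alpha chains and 23.9% of the beta chains.

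Other genes of the basement membrane were taken from 7 lists of 66 genes, of which 54 were tested. In these lists, 1 gene rose (Lox, beside 0.943% of all genes tested) and 3 fell (Lama3, Lamb3, Tll1, beside 0.325%), and 50 did not pass. The median log2 fold change over the 54 was -0.06. Both Nfat5-/- libraries were above both WT libraries in 14 of the 54, beside 21.6% of all genes tested, and below in 21, beside 25.0%. At an unadjusted p under 0.05 were 21 of the 54, beside 14.6% of all genes.

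Of the other laminin chains, 2 of 4 were tested and 0 passed with edgeR (0 at an unadjusted p under 0.05). Lama4, an alpha chain of vessels and mesenchyme, was at 1.74 to 2.70 RPKM with overlapping groups, and Lamc3 was at 0.0303 RPKM or less. Of the other basement membrane collagens, 5 of 7 were tested and 0 passed with edgeR (0 at an unadjusted p under 0.05). Col17a1, the hemidesmosome collagen of basal KCs, was at 266.0 and 194.0 RPKM in the WT pair, against 182.3 and 257.7 RPKM in the pair labelled Nfat5-/-. Col18a1, whose reads were in part placed at several sites, was at 205.8 to 289.8 RPKM with overlapping groups.

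Among 15 further basement membrane proteins, 9 were tested, 4 were at an unadjusted p under 0.05 (14.6% of all genes tested were) and 0 passed with edgeR. Agrn (agrin, a heparan sulfate proteoglycan that binds laminin) was at 51.9 and 37.2 RPKM in the WT pair, against 32.4 and 29.2 RPKM in the pair labelled Nfat5-/-, with a log2 fold change of -0.52 (adjusted p = 0.215, edgeR). Tinagl1, a matrix protein related to tubulointerstitial nephritis antigen, was at 50.8 to 54.2 RPKM in all libraries. Sparc, which binds collagen IV and was picked after its values were seen, was at 13.1 and 29.1 RPKM in the WT pair, against 41.6 and 43.1 RPKM in the pair labelled Nfat5-/- (log2 fold change 1.02, adjusted p = 0.201, edgeR).

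All 12 receptors for laminin and collagen IV were tested and 0 passed with edgeR, with 3 at an unadjusted p under 0.05, beside 14.6% of all genes tested. Sdc1 (syndecan-1) was at 873.5 to 932.1 RPKM with overlapping groups. Itga3, the alpha subunit of one of the laminin receptor integrins of KCs, was at 555.0 and 467.1 RPKM in the WT pair, against 404.8 and 435.4 RPKM in the pair labelled Nfat5-/-, with a log2 fold change of -0.26 (adjusted p = 0.373, edgeR). Itga2, a collagen receptor subunit named after its values were seen, was nearest to the threshold (-0.93, adjusted p = 0.0562, edgeR).

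Of 15 genes for collagen folding and crosslinking, 14 were tested, Lox alone passed (0.943% of all genes tested were called higher) and 8 were at an unadjusted p under 0.05 (14.6% of all genes). Lox, the oxidase that crosslinks collagen and elastin, was at 0.388 and 0.329 RPKM in the WT pair, against 1.72 and 2.67 RPKM in the pair labelled Nfat5-/-, a low level in both. It rose by a log2 fold change of 2.58 (SE 0.29, adjusted p = 0.0174, edgeR). With limma-trend the log2 fold change of Lox was 1.22 when 1 RPKM was added before the log, and 2.29 when 0.1 RPKM was added. Without Nfat5-/- replicate 2 it did not pass (2.21, adjusted p = 0.0917). P4hb, a subunit of collagen prolyl hydroxylase, and Serpinh1, the collagen chaperone HSP47, were at 288.9 to 350.1 and at 224.7 to 280.8 RPKM, both lower in the libraries labelled Nfat5-/- without passing (log2 fold changes of -0.19 and -0.26).

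Of 11 proteases, 10 were tested, Tll1 alone passed (0.325% of all genes tested were called lower) and 4 were at an unadjusted p under 0.05 (14.6% of all genes). Tll1, a tolloid protease of the family that processes procollagens and laminin chains, was at 15.5 and 20.3 RPKM in the WT pair, against 5.56 and 8.19 RPKM in the pair labelled Nfat5-/-. It fell by 1.36 on the log2 scale (SE 0.21, adjusted p = 0.0353, edgeR). Without Nfat5-/- replicate 1 the log2 fold change was -1.10, and without Nfat5-/- replicate 2 it was -1.68. The direction stayed, while the size changed and the call was lost. Htra1, a secreted serine protease with reads placed at several sites, was at 789.0 to 974.2 RPKM, and Ctsl (cathepsin L) at 154.1 to 181.5 RPKM. Neither passed. Mmp7 had 0 reads in all libraries.

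**Figure D4:**
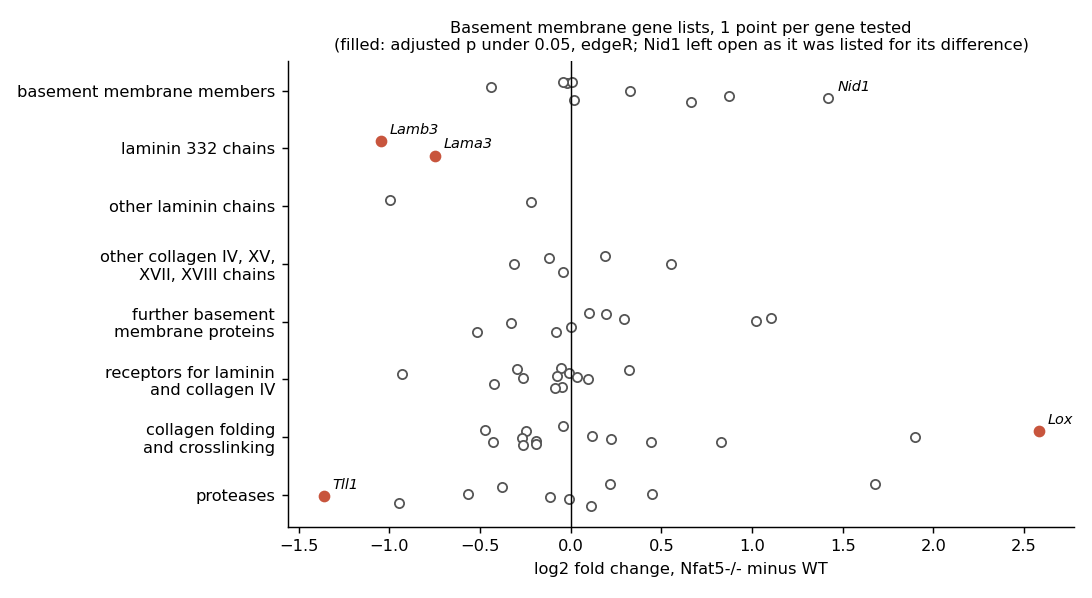
Log2 fold change (libraries labelled Nfat5-/- minus WT) of each gene tested in the basement membrane lists, 1 point per gene, with filled points for an adjusted p under 0.05 (edgeR). Lox, Lama3, Lamb3 and Tll1 are the filled points, and Nid1 is drawn open because it was listed for its difference.

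Markers of other cell types were read beside the genes above, since bulk RNA cannot tell fewer cells of a type from less RNA per cell. In skin, nidogen and collagen IV also come from fibroblasts and cells of the vessel wall. Of 8 fibroblast markers, 3 were tested and 0 passed with edgeR (1 at an unadjusted p under 0.05, beside 14.6% of all genes tested). All 8 were under 1 RPKM in every library, and their summed level was 0.633 and 0.540 RPKM in the WT pair, against 0.851 and 1.83 RPKM in the pair labelled Nfat5-/-. All 7 endothelial markers were also under 1 RPKM in every library, with sums of 0.773 to 0.909 RPKM, and 0 of the 3 tested passed with edgeR (0 at an unadjusted p under 0.05). The median log2 fold changes of the tested markers were 0.78 for fibroblasts and -0.14 for endothelium.

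Of 7 smooth muscle and pericyte markers, 4 were tested and all 4 rose (Acta2, Tagln, Myh11, Cnn1), beside 0.943% of all genes tested, with a median log2 fold change of 2.14. Their summed level was 183.9 and 150.9 RPKM in the WT pair, against 517.9 and 819.1 RPKM in the pair labelled Nfat5-/-. Acta2, the smooth muscle actin gene, made up most of it. It was at 163.7 and 133.7 RPKM in the WT pair, against 449.9 and 722.8 RPKM in the pair labelled Nfat5-/- (log2 fold change 2.00, adjusted p = 0.0192, edgeR). Tagln (transgelin, an actin-binding protein) was at 19.7 and 16.7 RPKM in the WT pair, against 66.3 and 93.1 RPKM in the pair labelled Nfat5-/- (2.11, adjusted p = 0.00768, edgeR). Myh11, the smooth muscle myosin heavy chain, was at 0.294 RPKM or less. The pericyte marker Rgs5 had 0 reads in all libraries, and Des and Pdgfrb were at 0.0834 RPKM or less. The same library, Nfat5-/- replicate 2, was highest for Acta2, Tagln, Col4a1, Col4a2 and Hspg2, but not for Nid1. The part of these markers in the levels of Nid1 and collagen IV was not tested.

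**Figure D5:**
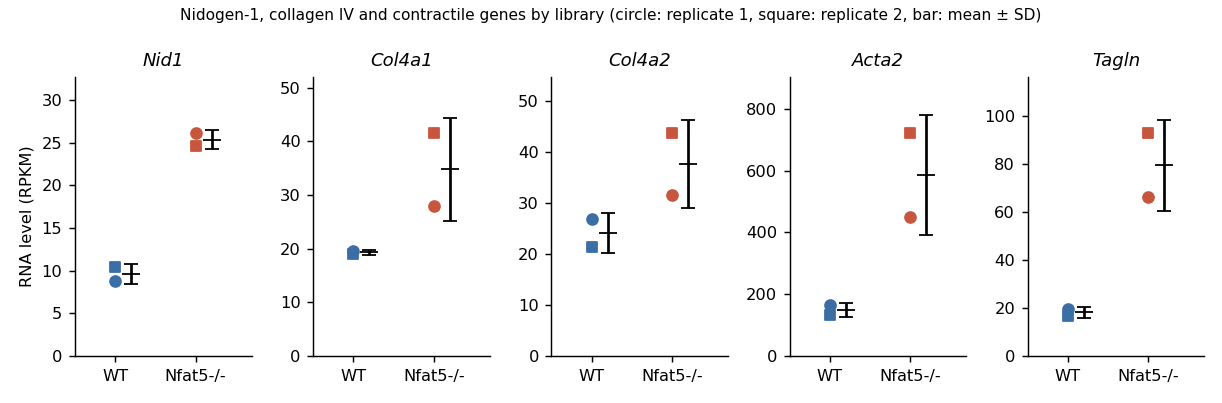
RNA level (RPKM) of Nid1, Col4a1, Col4a2 and the contractile genes Acta2 and Tagln by library, with circles for replicate 1, squares for replicate 2 and bars for the mean ± SD (n = 2); each panel has its own axis, from 0. In all 5 genes both Nfat5-/- libraries lie above both WT libraries, and replicate 2 is the higher of the Nfat5-/- libraries in each gene except Nid1.

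Of 6 melanocyte markers, 5 were tested, Tyrp1 fell (0.325% of all genes tested were called lower), 3 were at an unadjusted p under 0.05 (14.6% of all genes) and the median log2 fold change was -1.30. Their summed level was 7.54 and 7.20 RPKM in the WT pair, against 2.30 and 3.20 RPKM in the pair labelled Nfat5-/-. Of the 8 KC markers, 8 were tested and 0 passed with edgeR (0 at an unadjusted p under 0.05), with sums of 12750 to 14420 RPKM. Of 6 Schwann cell and 6 immune cell markers, 3 and 2 were tested and 0 passed with edgeR (0 at an unadjusted p under 0.05), with sums of 10.3 to 13.2 and 2.20 to 4.17 RPKM and medians of -0.09 and 0.35.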

How the data were processed

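Polyadenylated RNA of 4 libraries was sequenced as single reads. Per the methods of the study, the authors aligned the reads to GRCm38 with the CLC Genomics Workbench at default settings. The deposited tables hold counts made by the authors and not normalized (reads in the gene, its exons, introns and junctions). The authors also deposited RPKM values, which equal exon reads over exon length and a constant per library. Introns held 1.79% to 1.97% of gene reads. Where reads fit several sites the software shared them out.

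The members and lists were chosen with earlier results of these data known, among them the markers of smooth muscle and melanocytes, so those patterns are no independent support. Groups and replicate numbers came from the sample titles. Gene reads were tested with edgeR 4.0.16 (R 4.3.3) in all 4 libraries with filterByExpr, TMM factors (0.980 to 1.01), the quasi-likelihood method and genotype as the sole term. P-values are two-sided, adjusted by Benjamini-Hochberg over the 12614 genes tested, threshold 0.05. SE is the log2 fold change over the square root of F, and 95% intervals use its degrees of freedom and are not adjusted. DESeq2 1.42.0 and limma-trend (limma 3.58.1) were alternatives. With a library left out, the lone library of its group is assumed to vary like the other group. The steps were tested on simulated data.

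The sample titles number 2 replicates per genotype, and the paper describes the mice as siblings. Same-numbered libraries did not deviate together (correlation of deviations -0.07), so the number was not used as a pair. Depth limits a gene to 3 reads, 0.128 to 0.185 CPM, for counting error only, as there were no molecular identifiers.

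Named were all 10 members, of the other lists each gene past the threshold, Lama3 and Lamb3 and, where fewer than 2 genes passed, the 2 tested genes of highest mean RPKM, and of the cell type lists the markers past the threshold or at 0 reads. Genes named outside this rule are marked or stand for their list. One listed gene and the ratio with it are not reported here.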

Additional observations from a re-analysis of the deposited data

How the results depend on the processing

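The results were recomputed under 13 alternatives. Genes tested numbered 12614 in the main fit (1.27% called) and 13145 with DESeq2 (3.16% called). They numbered 18043 without a filter on low counts and 12911 to 13071 with a library left out. The counts of members and of other basement membrane genes below are to be read beside the calls among all these genes. Nid1, listed for this contrast, is among the members counted, so their counts are no test of Nid1. Genes called between the genotypes numbered 160 and changed to 1137 without a filter on low counts, to 416 with DESeq2, and to 16 to 478 with each library left out. Members called were 1, then 4 without a filter, 3 with DESeq2 and 0 to 1 with a library left out, where 0 came without Nfat5-/- replicate 2, and the 1 without Nfat5-/- replicate 1 was Col4a1. Other basement membrane genes called were 4, then 15 without a filter and 1 to 7 with a library left out. With the replicate block, 132 genes (96 higher, 36 lower), 1 member and 4 other basement membrane genes were called, and no call among the 13 genes recomputed changed. The log2 fold changes of Lama5 (-0.27 to 0.37), Lamb1 (-0.083 to 0.039), Lamb2 (-0.25 to 0.32) and Lamc1 (-0.20 to 0.15) took both signs as libraries were left out, and kept theirs under the other alternatives. That of Nid1 stayed between 1.31 and 1.56. Of 169 values for 13 named genes, 149 kept their direction and their side of the threshold or, for Nid1, moved by less than the spread between replicates. Col4a1 (adjusted p = 5.0e-10), Col4a2 (adjusted p = 7.7e-06) and Col7a1 (adjusted p = 0.00918) passed with edgeR without a filter on low counts. The cause of these changes was not tested. The chain ratios were the same from uniquely placed exon reads. They could not differ, because all exon reads of these chains were placed at a single site. With 2 libraries per genotype, small differences between the laminin chains cannot be told from the spread between replicates.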
